A study of Mus musculus with 12 samples.

Results

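Among T cells sorted from mouse spleen as precursor exhausted cells (Tpex), a small number lay in clusters 3 and 4 of the deposited clustering, the clusters in which most exhausted (Tex) cells of the same study lay. They are called Tex-cluster Tpex cells here. They were taken as the rows of the cell table that came from a Tpex library and carried cluster number 3 or 4. The rule gave 553 of 26080 Tpex cells and of 100540 cells in all. With anti-CD137 there were 83 of 13209 Tpex cells, 48 in cluster 3 and 35 in cluster 4. The Ig control had 470 of 12871 Tpex cells, 423 in cluster 3 and 47 in cluster 4. For reference, 9794 of 9897 Tex cells with anti-CD137 and 10173 of 10623 Tex cells in the Ig control lay in these clusters, and most Tpex cells lay in cluster 1, 11088 with anti-CD137 and 11253 in the Ig control.

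All mice were wild-type C57BL/6. Antibody to CD137, clone 3H3, was given at 10 µg to 5 mice, and a control immunoglobulin, clone HRPN, at 100 µg to 10 mice, each on 2 days a week over 14 days. Spleen cells with high CD44 were sorted as Tpex (PD1+ Slamf6+ Tim3-) or Tex (PD1+ Slamf6- Tim3+), and as PD1- effector cells (Teff). A 5′ gene expression library and a library of T cell receptor (TCR) chains were made for every sorted population. The labels assign no cell to a mouse, and each treatment was 1 sample per subset, so no difference has a replicate check, no test was run and the intervals below (exact 95%, unless said otherwise) cover counting error only. The clones, doses and numbers of mice differ between the treatments together with the antibody and cannot be told apart.

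CD137, also called 4-1BB, is a costimulatory receptor of activated T cells. In chronic stimulation, T cells that express Slamf6 and the transcription factor TCF1 renew themselves and give rise to cells that express Tim3, lose the capacity to renew and are called exhausted. Division is part of that passage, and a T cell keeps its TCR when it divides, so cells with the same pair of TCR chains can be counted as a clonotype. Cell cycle scores of this kind give the mean expression of genes known to be used in S phase, when DNA is copied, or in G2 and M phase, when the cell prepares to divide and divides, less that of control genes. The label could be checked against the sort only. Values of Tcf7, Havcr2 (which encodes Tim3) or any other marker gene were not used here, so the clusters keep their numbers, and a sort gate can itself set how many Tpex cells lie in a Tex cluster.

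The 4 libraries that bear on the result differed in depth. Unique molecular identifiers (UMIs, 1 for each captured RNA molecule) summed to 31252414 for Tpex cells with anti-CD137 and 70780078 for Tpex cells of the Ig control, and to 41319976 and 66719180 in the Tex libraries of anti-CD137 and the Ig control. The lowest count in any Tpex cell was 1472 UMIs with anti-CD137 and 2558 UMIs in the Ig control, so many anti-CD137 cells had fewer UMIs than any cell of the control. Shares are therefore compared mainly within a treatment, and where they are called UMI-matched, cluster 1 or Tex cells were weighted to the UMI counts of the Tex-cluster cells. Barcodes found in the Tex library of the same treatment as well numbered 1 of 83 Tex-cluster cells with anti-CD137 and 8 of 470 in the Ig control, 1.20% and 1.70%, against 1.42% and 1.68% of the whole Tpex libraries. None of these cells had the receptor of the Tex cell with its barcode. Barcodes found in the Teff library of the same treatment numbered 9 of 83 Tex-cluster cells with anti-CD137 (10.8%), against 4.17% of the whole Tpex library. In the Ig control they numbered 19 of 470 (4.04%), against 3.29%. The cause of the higher anti-CD137 share was not tested.

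Tex-cluster cells were rare, and rarer with anti-CD137. They made up 0.628% of Tpex cells with anti-CD137 (0.501 to 0.778%) and 3.65% in the Ig control (3.33 to 3.99%). The gap lay in cluster 3, which held 0.363% of Tpex cells with anti-CD137 and 3.29% in the Ig control. It was not particular to Tpex cells. With anti-CD137, 1898 Tex cells lay in cluster 3 and 7896 in cluster 4, against 9229 and 944 in the Ig control. Cluster 4 held 0.265% of Tpex cells (0.185 to 0.368%) with anti-CD137 and 0.365% (0.268 to 0.485%) in the Ig control, with intervals that overlap. Depth moved with this difference. Among cells in the UMI range that both Tpex libraries covered, the share was 1.55% with anti-CD137 (1.16 to 2.03%) and 3.65% in the Ig control. At 5000 to 7000 UMIs it was 7.62% with anti-CD137 (23 of 302 cells) and 2.65% in the Ig control (83 of 3127 cells), the opposite order. At 7000 to 10000 UMIs it was 2.94% with anti-CD137 (4 of 136 cells) and 8.89% in the Ig control (153 of 1721 cells). At 10000 UMIs or more it was 1.43% with anti-CD137 (1 of 70 cells) and 18.0% in the Ig control (164 of 912 cells). The order of the treatments thus depended on the UMI range.

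Tex-cluster cells carried more RNA molecules than the Tpex cells of cluster 1. With anti-CD137 their median was 3193 UMIs, with quartiles of 2161 and 5586 and a range of 1485 to 15637, against a median of 1887 UMIs and quartiles of 1633 and 2408 in cluster 1. For the Ig control the median was 8886.5 UMIs, with quartiles of 6260.5 and 10836 and a range of 2567 to 17688, against 4615 UMIs and quartiles of 3679 and 6138 in cluster 1. The ratios of the medians were 1.69 with anti-CD137 (1.40 to 2.33) and 1.93 in the Ig control (1.79 to 1.99). Intervals of these ratios cover the median of the Tex-cluster cells only and take the cluster 1 median as fixed. This excess belonged to cluster 3. Tpex cells of cluster 4 had a median of 2037 UMIs with anti-CD137 and 4251 UMIs in the Ig control, 1.08 and 0.921 times cluster 1, and both intervals include 1. Of the Tex-cluster cells, 38.6% with anti-CD137 and 24.9% in the Ig control had more UMIs than 95% of the cells of their library, against 2.70% and 3.49% of cluster 1 cells.

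The cells also stood apart from cluster 1 in cell cycle phase, and this held at matched UMI counts. The deposited phase followed the 2 scores in 100% of cells: G1 where both scores were below 0, and otherwise the phase with the higher score. Clusters were made from the same transcripts as the scores, so scores and phases describe the cells and were given no test. With anti-CD137, 53 of 83 Tex-cluster cells were in S or G2M phase (63.9%, 52.6 to 74.1%), against 31.4% of cluster 1 cells. Of the Ig control cells 396 of 470 were (84.3%, 80.6 to 87.4%), against 18.0% of cluster 1 cells. UMI-matched, the shares with anti-CD137 were 63.4% of 82 Tex-cluster cells and 36.2% of cluster 1, a difference of 27.2 percentage points (15.5 to 37.9). The Ig control shares were 84.3% and 29.9%, a difference of 54.3 percentage points (50.4 to 57.9). Matching for UMIs thus left a difference in each treatment. Matching for clonotype as well left 30.2 percentage points in the Ig control (22.2 to 38.7), over the 153 cells for which it was possible. Most of these cells belonged to 3 large clonotypes, with 82, 50 and 13 UMI-matched cells. The 30.2 and the 54.3 thus do not compare the same cells.

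**Figure D1:**
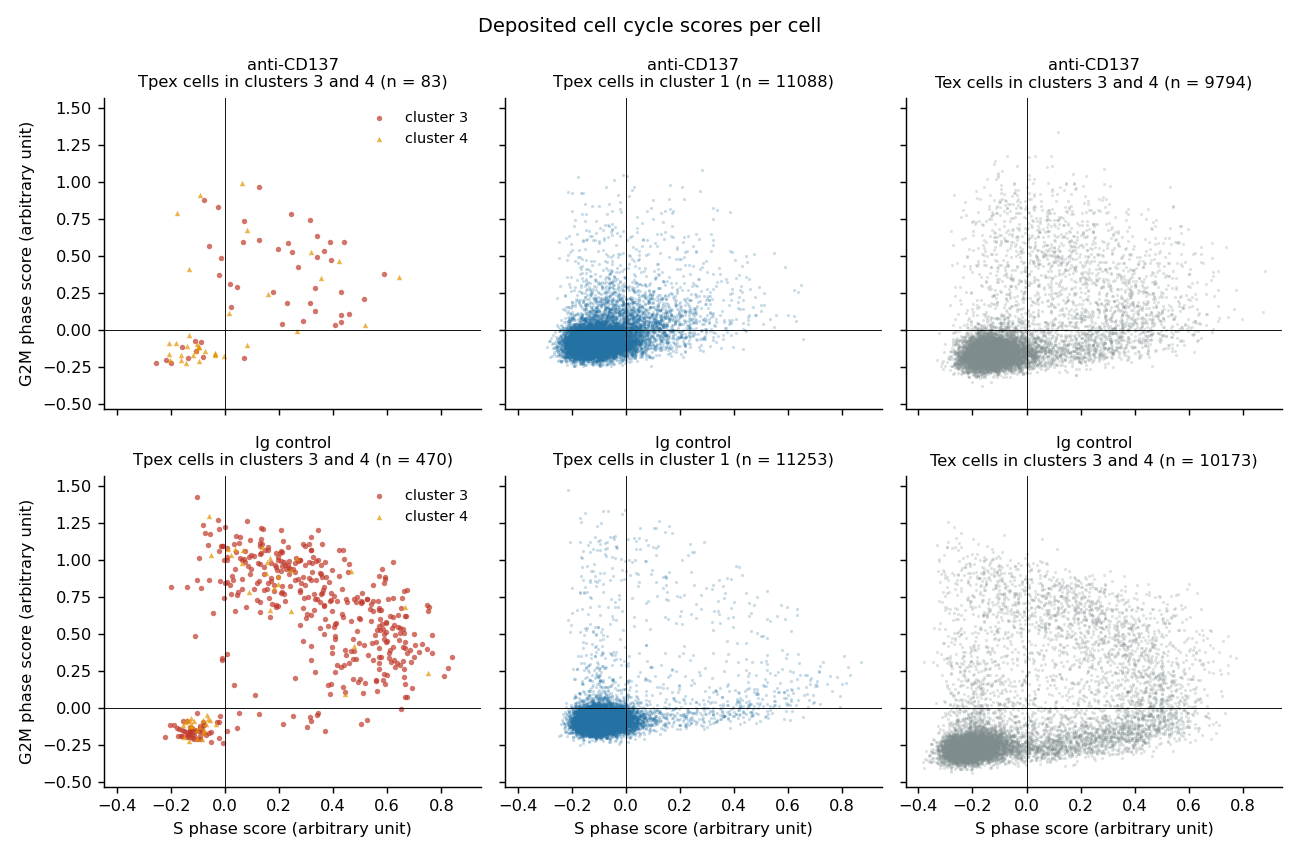
S phase score (x axis, arbitrary unit) against G2M phase score (y axis, arbitrary unit) for each cell, with anti-CD137 above and the Ig control below. Tex-cluster Tpex cells are on the left (circles for cluster 3, triangles for cluster 4), cluster 1 Tpex cells in the middle and Tex cells of clusters 3 and 4 on the right. Lines mark scores of 0, and cells to the lower left of both are in G1. Most of the 470 Ig control cells lie above or right of the lines, while most cluster 1 cells lie to the lower left.

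The median scores over all cells showed the same order, and G2M phase took most of the difference in phase. The median G2M score of Tex-cluster cells was 0.126 with anti-CD137, against -0.0715 in cluster 1. Ig control cells had 0.660, against -0.0844 in cluster 1. The median S score was 0.0433 with anti-CD137, against -0.101 in cluster 1, and 0.275 in the Ig control, against -0.0920 in cluster 1. Within UMI bins the median G2M score was above that of cluster 1 in 4 of 8 bins with anti-CD137 and 4 of 6 in the Ig control, and the median S score in 6 of 8 and 5 of 6. The G2M median was below that of cluster 1 in the bins under 3000 UMIs with anti-CD137 and under 4000 UMIs in the Ig control. By phase and UMI-matched, G2M held 41.5% of Tex-cluster cells with anti-CD137 and 20.4% of cluster 1 cells, a difference of 21.1 percentage points (10.1 to 32.7). Ig control shares in G2M were 57.9% of Tex-cluster cells and 13.5% of cluster 1 cells, a difference of 44.4 (39.6 to 49.1). The S phase differences were smaller, 6.07 percentage points with anti-CD137 (-2.64 to 16.8) and 9.94 in the Ig control (5.73 to 14.4), and with anti-CD137 the interval includes 0.

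Clusters 3 and 4 differed in phase among these cells. In cluster 3, 81.2% of anti-CD137 cells (39 of 48, 67.4 to 91.1%) and 87.9% of Ig control cells (372 of 423, 84.5 to 90.9%) were in S or G2M phase. In cluster 4 the shares were 40.0% with anti-CD137 (14 of 35, 23.9 to 57.9%) and 51.1% in the Ig control (24 of 47, 36.1 to 65.9%). Cluster 4 cells also had fewer UMIs, as given above. Against UMI-matched cluster 1 cells, cluster 4 alone differed by 31.9 percentage points in the Ig control (16.9 to 46.8) but by 7.40 with anti-CD137 (-8.77 to 25.3), an interval that includes 0. For cluster 3 alone, with 47 matched anti-CD137 cells, the difference was 41.9 percentage points (27.3 to 52.6).

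The share of Tex-cluster cells in S or G2M phase was higher at higher UMI counts. With anti-CD137, 18.8% of Tex-cluster cells at 1500 to 2000 UMIs were in S or G2M phase (3 of 16 cells, 4.05 to 45.6%), below the 32.4% of cluster 1. All 7 anti-CD137 cells at 4000 to 5000 UMIs and all 23 at 5000 to 7000 UMIs were, against 37.8% and 47.3% of cluster 1 cells. Of Ig control Tex-cluster cells at 2500 to 3000 UMIs, 22.2% were in S or G2M phase (2 of 9 cells), against 19.3% of cluster 1 cells. At 5000 to 7000 UMIs the Ig control share was 72.3% (60 of 83 cells), against 14.7%. At 7000 to 10000 UMIs it was 95.4% (146 of 153 cells), against 25.1%, and at 10000 UMIs or more it was 99.4% (163 of 164 cells), against 48.4%. Over all bins, the intervals of Tex-cluster and cluster 1 cells lay apart with anti-CD137 only from 4000 to 7000 UMIs. In the Ig control they lay apart in each bin from 4000 UMIs up. In all other bins with Tex-cluster cells the intervals overlapped. The Ig control cluster 1 share was itself highest in the top bin, so the gap was narrower there than at 7000 to 10000 UMIs.

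**Figure D2:**
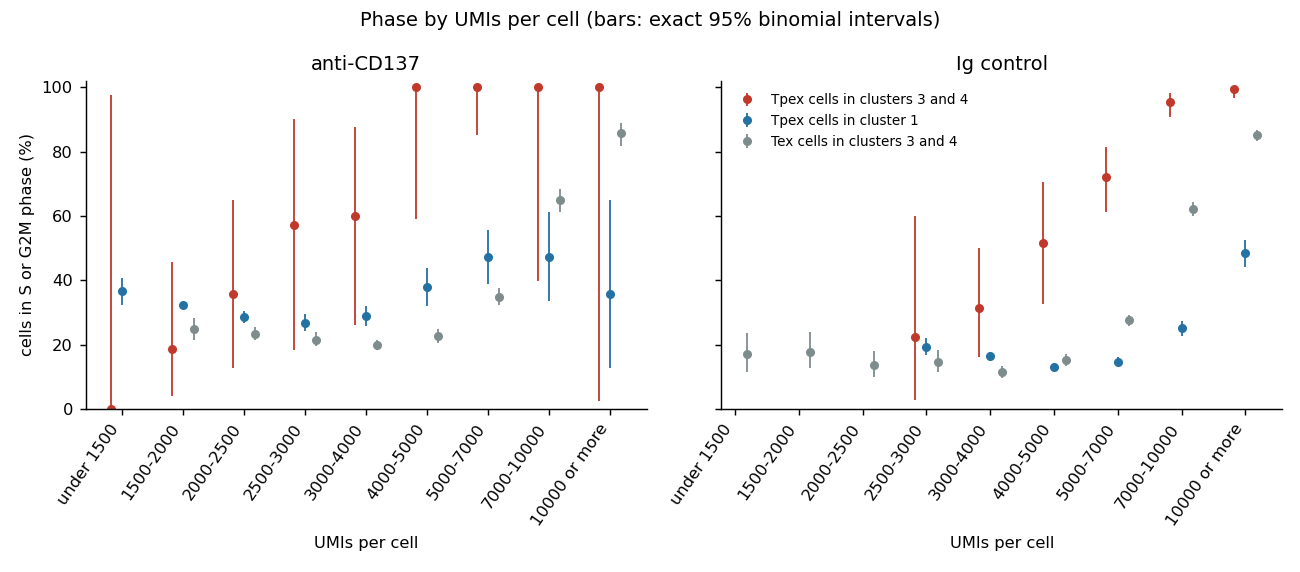
Percent of cells in S or G2M phase (y axis) by UMIs per cell (x axis, bins), with anti-CD137 on the left and the Ig control on the right. Points are shares of Tex-cluster Tpex cells, cluster 1 Tpex cells and Tex cells of clusters 3 and 4, and bars are exact 95% binomial intervals. In the Ig control the Tex-cluster Tpex cells reach 99.4% at 10000 UMIs or more, above Tex cells at 85.2% and cluster 1 cells at 48.4%.

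Seen from the side of the whole Tpex library, few G1 cells lay in a Tex cluster at any depth. With anti-CD137, 30 of 8408 Tpex cells in G1 (0.357%), 19 of 2095 in S phase (0.907%) and 34 of 2706 in G2M (1.26%) did. For the Ig control, 74 of 10197 cells in G1 (0.726%), 124 of 1349 in S phase (9.19%) and 272 of 1325 in G2M (20.5%) did. The order of the phases was the same in both treatments. At 5000 to 7000 UMIs the G2M share was also the same to 3 digits, 16.9% with anti-CD137 (15 of 89 cells, 9.75 to 26.3%) and 16.9% in the Ig control (43 of 255 cells, 12.5 to 22.0%). In that range the S phase shares were 7.62% with anti-CD137 (8 of 105 cells) and 6.88% in the Ig control (17 of 247 cells). None of 108 anti-CD137 G1 cells lay in a Tex cluster there, which allows up to 3.36%, and 0.876% of Ig control G1 cells did. At 7000 to 10000 UMIs the G2M shares differed, 6.98% with anti-CD137 (3 of 43 cells, 1.46 to 19.1%) and 37.7% in the Ig control (98 of 260 cells, 31.8 to 43.9%). Among Ig control cells with 10000 UMIs or more the shares were 0.260% in G1 (1 of 385 cells), 18.3% in S (48 of 262) and 43.4% in G2M (115 of 265). With anti-CD137 the counts at that depth were 0 of 13 in G1, 1 of 32 in S and 0 of 25 in G2M, which for G2M allows up to 13.7%. Ig control cells in G1 thus showed no higher share at high UMI counts, while those in S and G2M did.

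**Figure D3:**
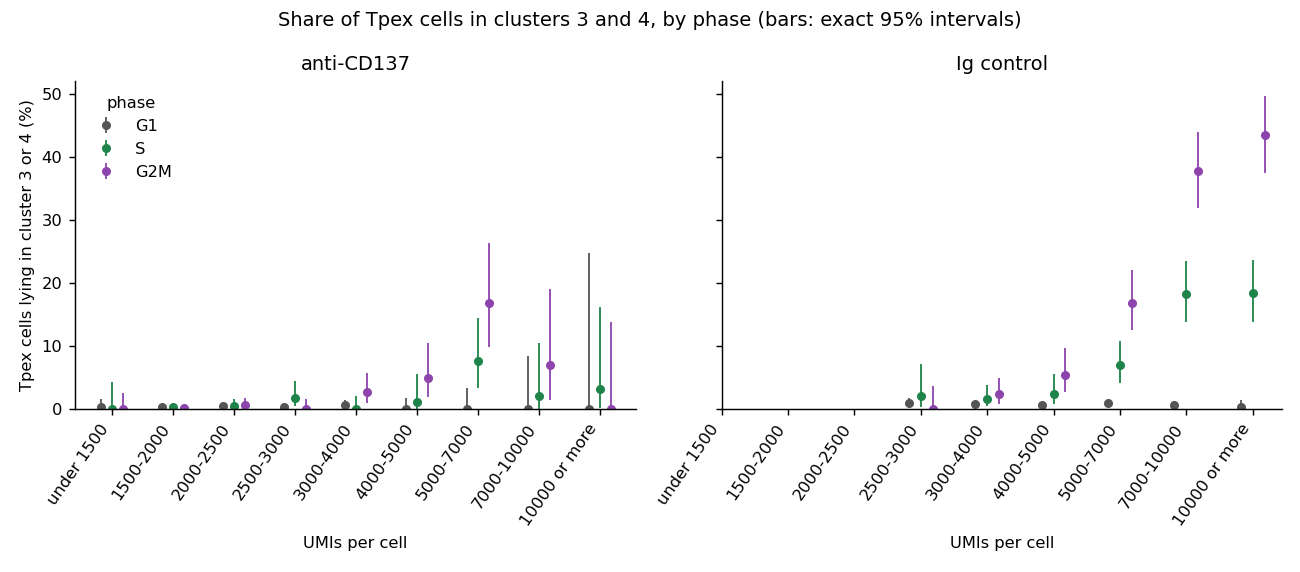
Percent of Tpex cells that lay in cluster 3 or 4 (y axis) by UMIs per cell (x axis, bins) and phase, with anti-CD137 on the left and the Ig control on the right. Bars are exact 95% intervals. In the Ig control the G2M share climbs to 43.4% at 10000 UMIs or more, while the G1 share stays below 1% in each bin.

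Against the Tex cells of the same 2 clusters, the Tpex cells were again more often in S or G2M phase. UMI-matched, the shares with anti-CD137 were 64.6% of Tpex cells and 29.0% of Tex cells, a difference of 35.6 percentage points (24.2 to 45.9). For the Ig control they were 84.3% and 56.8%, a difference of 27.4 (23.7 to 30.7). The Ig control difference lay in G2M, at 57.9% of Tpex and 25.02% of Tex cells. In S phase the Tpex cells were lower, at 26.4% against 31.8% of Tex cells, a difference of -5.43 percentage points (-9.53 to -1.05). Within cluster 3 alone, 81.2% of Tpex cells and 60.4% of Tex cells were in S or G2M phase with anti-CD137, and 87.9% and 60.4% in the Ig control. Within cluster 4 the shares were 41.2% of Tpex and 21.6% of Tex cells with anti-CD137, and 41.0% of the 39 Tpex cells that could be matched and 9.14% in the Ig control. The other Ig control cells of cluster 4, 4 at 7000 to 10000 UMIs and 4 above, were all in S or G2M phase and had too few Tex cells of their depth. In both clusters and both treatments the Tpex cells were thus higher.

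In ribosomal protein content the Tex-cluster cells lay closer to the Tex cells than to cluster 1. Ribosomal protein transcripts, which encode the parts of ribosomes, made up a median of 19.4% of the UMIs of Tex-cluster cells with anti-CD137, against 24.0% in cluster 1 and 18.1% in the Tex cells of clusters 3 and 4. Ig control medians were 18.5% in Tex-cluster cells, 25.1% in cluster 1 and 18.1% in Tex cells. The median was below that of cluster 1 in 8 of 8 UMI bins with anti-CD137 and in 6 of 6 in the Ig control. Weighted over these bins, the medians were 19.6% in Tex-cluster cells and 24.3% in cluster 1 with anti-CD137, and 18.3% and 25.4% in the Ig control. The lower share was not limited to dividing cells. Ig control Tex-cluster cells in G1 had a median of 20.2%, against 25.4% in G1 cells of cluster 1, and those in G2M had 16.8%, against 22.6%. Mitochondrial transcripts made up a median of 1.30% of UMIs with anti-CD137, against 1.67% in cluster 1 and 1.04% in Tex cells. For the Ig control the medians were 1.36% in Tex-cluster cells, 1.57% in cluster 1 and 1.27% in Tex cells. At matched UMIs slightly more genes were detected than in either of the other sets. With anti-CD137 the bin-weighted median was 1663 genes against 1620 in cluster 1, and over the bins shared with Tex cells 1696 against 1642 in Tex. For the Ig control it was 2776 genes against 2614 in cluster 1 and 2721 in Tex.

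TCR chains are read from a library of their own. A paired TRA and TRB chain was found in 53 Tex-cluster cells with anti-CD137 (63.9%), against 33.4% of cluster 1 cells, and in 379 in the Ig control (80.6%), against 78.3%. UMI-matched, the shares were 64.6% and 37.3% with anti-CD137, and 80.6% and 71.3% in the Ig control. A receptor was thus found more often in Tex-cluster cells than in cluster 1 cells of like depth. All values on clonotypes below rest on these paired cells and compare them with paired cells of cluster 1.

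Tex-cluster cells of the Ig control more often belonged to an expanded clonotype, meaning a clonotype with at least 2 cells in the Tpex library. With anti-CD137, 27 of 51 matched cells did (52.9%, 38.5 to 67.1%), against 39.1% of UMI-matched cluster 1 cells, a difference of 13.9 percentage points (-1.24 to 28.7) whose interval includes 0. The Ig control had 283 of 379 (74.7%, 70.0 to 79.0%), against 47.7%, a difference of 26.9 (21.8 to 31.7). That difference was 16.3 without UMI bins (11.5 to 20.7) and 17.0 when phase was matched along with UMIs (11.2 to 22.6). The anti-CD137 value turned to -1.89 percentage points (-15.6 to 9.88) when clonotypes were defined by TRB alone, so it gives no firm direction. The median paired cell belonged to a clonotype of 2 cells with anti-CD137, against 1 in cluster 1, and of 9 cells in the Ig control, against 2. Among Tex cells of clusters 3 and 4, 82.4% with anti-CD137 and 92.2% in the Ig control had a clonotype of at least 2 cells. Cells of a clonotype share their origin, so the true uncertainty is wider than these intervals.

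The Ig control cells also more often had a clonotype that was found in the Tex library of the same treatment. With anti-CD137, 12 of 51 matched cells did (23.5%, 12.8 to 37.5%), against 12.6% of UMI-matched cluster 1 cells, a difference of 10.9 percentage points (-0.478 to 25.1) whose interval includes 0. The Ig control had 215 of 379 (56.7%, 51.6 to 61.8%), against 30.0%, a difference of 26.8 (21.3 to 32.1), and of 17.5 without UMI bins (12.2 to 22.6). As a background, a clonotype found in the Tex library of the other treatment, from other mice, was carried by 0 of 53 Tex-cluster cells with anti-CD137, which allows up to 6.72%, and by 1 of 379 in the Ig control (0.264%). Matched by phase and UMIs together, the difference was 17.4 percentage points with anti-CD137 (2.86 to 35.1), an interval above 0, and 18.9 in the Ig control (12.6 to 24.9). The 17.4 rests on the 36 anti-CD137 cells that could be matched, 11 of them with a clonotype found in Tex. The 17.4 and the 10.9 thus do not compare the same cells. Without the 3 largest clonotypes the Ig control difference was 9.44 (3.30 to 16.0). By cluster, the clonotype was found in Tex for 25.8% of paired cells of cluster 3 and 18.2% of cluster 4 with anti-CD137, and for 54.8% (49.4 to 60.2%) and 75.0% (57.8 to 87.9%) in the Ig control.

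**Figure D4:**
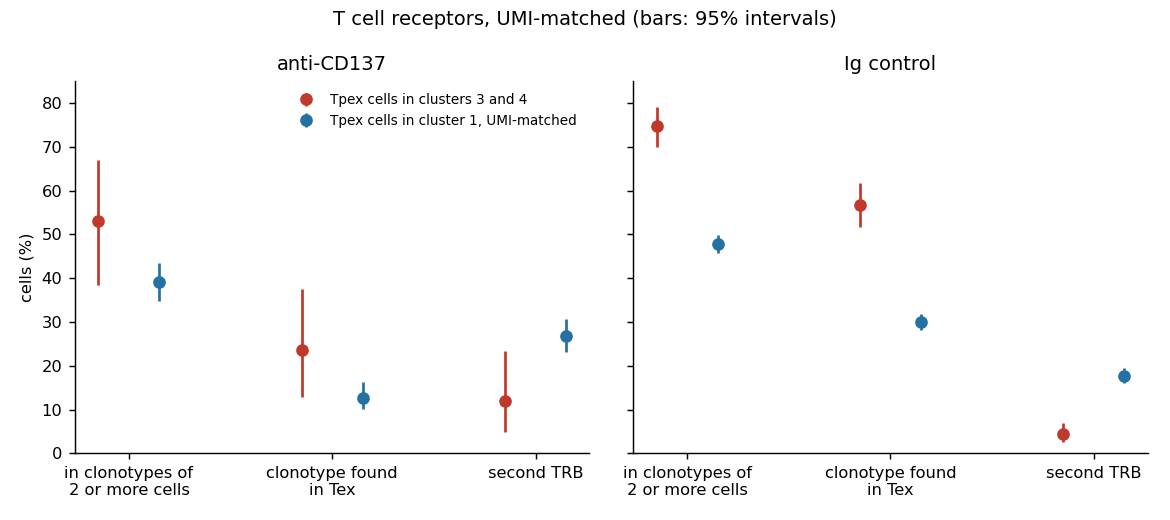
Percent of cells (y axis) that were in a clonotype of 2 or more cells, had a clonotype found in the Tex library of the same treatment, or had a second TRB chain. Tex-cluster Tpex cells stand left of UMI-matched cluster 1 Tpex cells, with anti-CD137 on the left and the Ig control on the right, and bars are 95% intervals. For the Ig control the first pair lies at 74.7% and 47.7% and the second at 56.7% and 30.0%, with no overlap of intervals.

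Sharing with Tex went with clonotype size. With anti-CD137, a clonotype of 1 cell was found in Tex for 2 of 25 Tex-cluster cells (8.00%) and 4.93% of cluster 1 cells, and clonotypes of 2 to 4 cells for 6 of 21 (28.6%) and 22.0%. Among Ig control cells, a clonotype of 1 cell was found in Tex for 4 of 96 Tex-cluster cells (4.17%) and 4.77% of cluster 1 cells. For Ig control clonotypes of 2 to 4 cells the shares were 36.5% (23 of 63) and 25.9%, for 5 to 9 cells 41.2% (14 of 34) and 56.0%, and for 10 to 49 cells 70.0% (28 of 40) and 79.5%. Neither set was the higher throughout. All 146 Tex-cluster cells and all 1662 cluster 1 cells in Ig control clonotypes of 50 or more cells had a clonotype found in Tex. Such large clonotypes held 38.5% of paired Tex-cluster cells and 18.9% of paired cluster 1 cells. With clonotype size matched in place of UMIs, the difference in sharing was 2.82 percentage points with anti-CD137 (-7.65 to 16.5) and -0.723 in the Ig control (-5.91 to 4.36). Within these size bins no difference in sharing was detectable with these cell numbers. The Ig control bin of 50 or more cells could show none, because both sets carried the same clonotypes there.

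**Figure D5:**
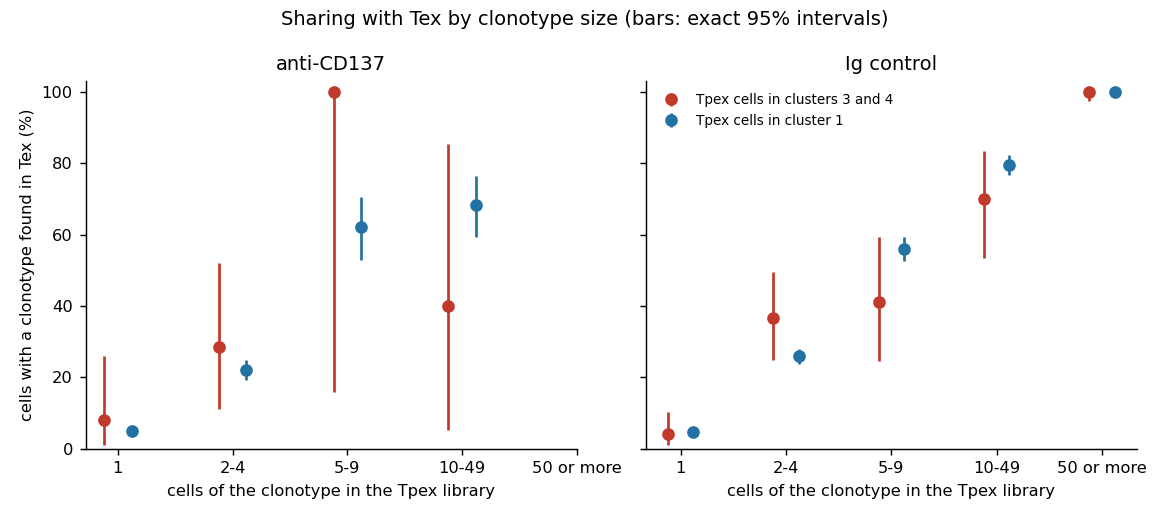
Percent of paired Tpex cells whose clonotype was found in the Tex library of the same treatment (y axis) by the number of cells of that clonotype in the Tpex library (x axis), with anti-CD137 on the left and the Ig control on the right. Bars are exact 95% intervals. Ig control Tex-cluster and cluster 1 cells climb together, to 100% in clonotypes of 50 or more cells.

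Sharing was more common among the Tex-cluster cells in G1 than among those in S or G2M phase. With anti-CD137, 8 of 20 Tex-cluster cells in G1 had a clonotype found in Tex (40.0%, 19.1 to 63.9%) and 4 of 33 in S or G2M phase did (12.1%, 3.40 to 28.2%), against 14.5% and 9.32% in cluster 1. Of the Ig control cells, 42 of 56 in G1 did (75.0%, 61.6 to 85.6%) and 173 of 323 in S or G2M phase (53.6%, 48.0 to 59.1%), against 38.3% and 43.8% in cluster 1. The intervals of the phases overlap with anti-CD137 and do not in the Ig control. They count cells of a clonotype as independent, so the true uncertainty is wider. Expanded clonotypes held 50% of the anti-CD137 Tex-cluster cells in G1 and 54.5% of those in S or G2M phase, and 83.9% and 73.1% in the Ig control. Depth moved with the phases: the median of Tex-cluster cells was 2102.5 UMIs in G1, 5169 in S and 5076.5 in G2M with anti-CD137, and 4738, 9355 and 9371 in the Ig control. In the Ig control the share of Tex-cluster cells with a clonotype found in Tex was itself 81.8% at 3000 to 4000 UMIs and 40.5% at 10000 UMIs or more. The part of clonotype size and depth in the difference between phases was not tested.

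The Tex-cluster cells came from many clonotypes. With anti-CD137 the 53 paired cells carried 47 clonotypes, of which 42 had 1 Tex-cluster cell. The 379 paired Ig control cells carried 211, of which 189 had 1 Tex-cluster cell. Most clonotypes thus gave a single Tex-cluster cell. With anti-CD137 19 of the 47 had cells in cluster 1, 11 in Tex, 8 in both and 3 in Tex but not in cluster 1. Of the 211 Ig control clonotypes 113 had cells in cluster 1, 60 in Tex, 56 in both and 4 in Tex but not in cluster 1. Counted once per clonotype, 23.4% of Tex-cluster clonotypes with anti-CD137 and 28.4% in the Ig control were found in Tex, against 7.47% and 10.4% of cluster 1 clonotypes. This count does not match clonotype size. Clonotypes of 1 cell were 25 of 47 Tex-cluster clonotypes with anti-CD137 and 96 of 211 in the Ig control. In cluster 1 they were 2554 of 2999 and 3667 of 4635. A larger clonotype has more chances to have a Tex-cluster cell, and sharing went with size. Neither cluster 1 nor Tex held 25 of the anti-CD137 and 94 of the Ig control clonotypes. Most of these had only 1 Tpex cell, so they could not have a cell in cluster 1 as well.

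The 3 largest clonotypes by Tex-cluster cells took 7 of the 53 paired cells with anti-CD137 (13.2%) and 146 of the 379 in the Ig control (38.5%). The nucleotide CDR3s, the stretch of each chain that meets the antigen, are printed for the Ig control clonotypes and for the named anti-CD137 clonotype that was found in Tex, because cells with these receptors lay both among the Tex-cluster Tpex cells and in the Tex sort. Each reads 5′ to 3′, and capitals mark the middle of the CDR3, which is what is left after the first 12 and the last 12 bases.
anti-CD137 clonotype, TRB (TRBV16, TRBJ2-5): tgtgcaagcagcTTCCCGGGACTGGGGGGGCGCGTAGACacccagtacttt
anti-CD137 clonotype, TRA (TRAV7-3, TRAJ17): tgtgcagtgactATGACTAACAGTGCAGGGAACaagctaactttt
Ig control clonotype 1, TRB (TRBV2, TRBJ2-1): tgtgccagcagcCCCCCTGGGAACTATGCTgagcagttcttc
Ig control clonotype 1, TRA (TRAV6-7-DV9, TRAJ43): tgtgctctgaggAACAATgccccacgattt
Ig control clonotype 2, TRB (TRBV5, TRBJ2-3): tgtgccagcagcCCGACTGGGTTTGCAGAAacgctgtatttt
Ig control clonotype 2, TRA (TRAV12-3, TRAJ26): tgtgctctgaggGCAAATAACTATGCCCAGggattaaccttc
Ig control clonotype 3, TRB (TRBV5, TRBJ1-3): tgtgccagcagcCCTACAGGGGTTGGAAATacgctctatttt
Ig control clonotype 3, TRA (TRAV12D-3, TRAJ11): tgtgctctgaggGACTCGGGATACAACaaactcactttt

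With anti-CD137 no clonotype had more than 3 Tex-cluster cells. The largest, of TRBV15 with TRAV7-5, had 3 Tpex cells, all in cluster 3 and all in S or G2M phase, and no Tex cells. A clonotype of TRBV12-2 with TRAV13-1 had 2 Tex-cluster cells among 29 Tpex cells and no Tex cells, and 15 of its 27 cluster 1 cells were in S or G2M phase. The clonotypes of TRBV16 with TRAV3N-3 and of TRBV17 with TRAV16D-DV11 each had 2 Tex-cluster cells, all in S or G2M phase, among 3 Tpex cells. The printed clonotype of TRBV16 with TRAV7-3 had 2 Tpex cells, both in cluster 3 and in S or G2M phase, and 9 Tex cells, 4 in cluster 3 and 5 in cluster 4. Of the 5 named anti-CD137 clonotypes, this was the only clonotype found in Tex.

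The 3 printed Ig control receptors had TRB CDR3s of 42 bases each, and their TRA CDR3s of 30, 42 and 39 bases began with the same 12 bases although their TRAV segments differ. Each had most of its Tpex cells in cluster 1. Clonotype 1 had 82 Tex-cluster cells (71 in cluster 3 and 11 in cluster 4) among 869 Tpex cells, 9.44% (7.58 to 11.6%), with 769 cells in cluster 1, 762 Tex cells and 2 Teff cells. Clonotype 2 had 50 (42 and 8) among 797 Tpex cells, 6.27% (4.69 to 8.19%), with 729 in cluster 1 and 702 Tex cells. Clonotype 3 had 14 (13 and 1) among 183 Tpex cells, 7.65% (4.25 to 12.5%), with 164 in cluster 1 and 379 Tex cells. These shares lie above the 3.65% of the whole library, although the clonotypes were chosen for their Tex-cluster cells.

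Within the largest Ig control clonotypes, where cells have the same receptor, the phase difference was smaller at matched UMIs than in the whole library. In clonotype 1, 82.9% of Tex-cluster cells were in S or G2M phase (68 of 82, 73.0 to 90.3%), against 24.3% of its cluster 1 cells and 52.4% of them after UMI matching (42.7 to 57.7%). In clonotype 2 the shares were 80.0% (40 of 50, 66.3 to 89.97%), 22.2% and, matched, 53.3% (44.8 to 58.6%). In clonotype 3 they were 78.6% (11 of 14, 49.2 to 95.3%) and 22.6%, and for the 13 cells that could be matched 76.9% and 50.2% (27.8 to 60.4%). The intervals lay apart for clonotypes 1 and 2 and overlapped for clonotype 3. The next 2 clonotypes by Tex-cluster cells, of TRBV31 with TRAV12-2 and of TRBV5 with TRAV9N-2, had 4 such cells each, all in S or G2M phase, against 2 of 24 and 6 of 16 of their cluster 1 cells. Over all clonotypes with cells in both places, matched by clonotype but not by UMIs, the difference was 7.99 percentage points with anti-CD137 (-18.0 to 33.0), an interval too wide to give a direction, and 61.9 in the Ig control (56.1 to 66.4). Matched by clonotype and UMIs together, the Ig control shares were 81.0% of 153 Tex-cluster cells and 50.9% of cluster 1 cells, a difference of 30.2 (22.2 to 38.7). Most of these 153 cells were those of clonotypes 1 to 3, so the value adds little to theirs. Only 2 anti-CD137 cells could be matched that way, which gives no comparison.

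In the Ig control the use of TRBV2 and TRBV5 followed these clonotypes. With anti-CD137, TRBV16 (mm10, chromosome 6, 41151740 to 41152230, plus strand) was used by 7 of 53 cells, 13.2% (5.48 to 25.3%), against 4.97% in cluster 1, and by 5 of 47 clonotypes, 10.6% (3.55 to 23.1%), against 5.20%. Its largest clonotype had 2 of these cells. TRBV29 was also used by 7 of 53 cells, 13.2%, against 10.9% in cluster 1. Segments were listed for their number of Tex-cluster cells, which favours an excess over cluster 1. TRBV2 (chromosome 6, 41047340 to 41047995, plus strand) was used by 87 Ig control Tex-cluster cells, 23.0% (18.8 to 27.5%), against 10.6% in cluster 1, and 82 of the 87 were clonotype 1. Counted once per clonotype the TRBV2 shares were 2.84% and 2.44%. TRBV5 (chromosome 6, 41062332 to 41062803, plus strand) was used by 79 Ig control cells, 20.8% (16.9 to 25.3%), against 14.5% in cluster 1, and by 6.16% of clonotypes (3.32 to 10.3%), against 3.69%. The higher cell shares of TRBV2 and TRBV5 in the Ig control thus went with a few large clonotypes. That of TRBV12-1 did not. It was used by 27 Ig control cells, 7.12% (4.75 to 10.2%), against 5.52% in cluster 1, and its largest clonotype had 2 of these cells. Counted once per clonotype the TRBV12-1 shares were 11.8% (7.82 to 17.0%) and 7.23%.

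A second TRB chain, which can come from a second cell in the droplet, from free RNA or from a cell that uses both of its alleles, was less common in Ig control Tex-cluster cells than in cluster 1 cells of like depth. With anti-CD137 it was found in 7 of 58 matched cells with a TRB (12.1%, 5.0 to 23.3%), against 26.8%, a difference of -14.7 percentage points (-22.8 to -2.95). Ig control cells had it in 18 of 402 (4.48%, 2.67 to 6.98%), against 17.7%, a difference of -13.3 (-15.8 to -10.2). Both rested on the matching: without UMI bins the difference was -4.81 with anti-CD137 (-12.2 to 6.34) and -1.90 in the Ig control (-3.77 to 0.647), and both intervals include 0. The anti-CD137 interval also reached past 0 with UMI bins of equal width on a log scale (-12.4, -19.9 to 0.00562) and with TRB chains of at least 3 UMIs (-10.3, -18.5 to 1.75), so its direction is not firm. At 10000 UMIs or more in the Ig control, 7.81% of Tex-cluster cells had a second TRB (10 of 128), against 33.1% of cluster 1 cells, while at 2500 to 3000 UMIs 2.32% of cluster 1 cells had. Matched by phase and UMIs together, the difference was -9.73 percentage points with anti-CD137 (-18.4 to 3.17), an interval that includes 0, and -6.19 in the Ig control (-9.46 to -2.93). Without cells that had a second TRB, the UMI-matched phase difference was 24.6 percentage points with anti-CD137 and 52.2 in the Ig control. The expanded share difference was then 10.3 with anti-CD137 (-6.25 to 26.2) and 23.5 in the Ig control (18.1 to 28.5). The difference in sharing with Tex was then 9.36 with anti-CD137 (-4.18 to 25.4) and 25.2 in the Ig control (19.4 to 30.8). Where the second TRB chains came from was not tested.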

How the data were processed

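Droplets were processed with a Chromium 5′ kit and read over 28 and 91 bases, per the labels' protocols. Alignment and clustering rest on Cell Ranger 3.0.2, Seurat 4.0.0 and build mm10, per the submitters' processing notes. For each cell the authors deposited a count of UMIs, a count of genes, the percent of UMIs in mitochondrial and in ribosomal protein transcripts, an S and a G2M score without unit, the phase and the cluster, as a Seurat metadata table per the file headers. Whether the authors removed doublets was not stated in these sources. No caller was run, since it needs gene values. For each of 192524 TCR contigs the authors deposited a count of UMIs. Contigs were matched to cells on library plus barcode, and a clonotype was the pair of nucleotide CDR3s of the TRA and TRB with most UMIs.

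Cells could not be thinned to a single depth without gene counts, so cluster 1 was weighted to the Tex-cluster cells over 9 UMI bins with edges at 1500, 2000, 2500, 3000, 4000, 5000, 7000 and 10000, keeping bins with at least 20 cluster 1 cells (5 within a clonotype). Shares have Clopper-Pearson 95% intervals, and intervals of differences combine those of both shares by the square-and-add method. Named clonotypes were the 5 per treatment with most Tex-cluster cells (at least 2), and V segments were the 5 TRBV and TRAV with most cells, of which a few are described. Sequences were printed for named clonotypes found in Tex, at most 3 per treatment. Segment positions are from GENCODE M21 (mm10), counted from 1. The cells, lists and comparisons were chosen with earlier results of these data known. The matching was tested on simulated data. Alternatives are given in the closing section; those within clonotypes, with and without UMI bins, by clonotype size, by phase and UMIs, without the 3 largest clonotypes and with thinned Tex libraries were added after seeing the data. Python 3.11.15, numpy 2.4.6, pandas 2.3.3, scipy 1.17.1 and matplotlib 3.10.9 were used.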

Additional observations from a re-analysis of the deposited data

How the results depend on the processing

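Of the values under other settings, 66 lay within the counting interval of the reported value. That interval does not measure a spread between replicates, which 1 library per group cannot give. The others follow, in percentage points unless said otherwise. The anti-CD137 share of Tpex cells in clusters 3 and 4 was 1.19% of paired cells, 1.32% with each clonotype counted once and 1.55% in the UMI range of both libraries. The phase difference with anti-CD137 was 39.2 with a score above 0.1 required, 41.9 in cluster 3, 7.40 in cluster 4, 7.99 matched by clonotype in place of UMIs, and -55.2 matched by both, from 2 cells. In the Ig control it was 66.2 without UMI bins, 61.0 with a score above 0.1, 31.9 in cluster 4, 61.9 matched by clonotype in place of UMIs and 30.2 matched by both. The UMI ratio with anti-CD137 was 2.69 in cluster 3 and 1.08 in cluster 4, and in the Ig control it turned to 0.921 in cluster 4. The expanded share difference with anti-CD137 was -1.89 by TRB alone. In the Ig control it was 16.3 without bins, 17.0 by UMIs and phase and 18.9 without the 3 largest clonotypes. Sharing with Tex in the Ig control differed by 17.5 without bins, 19.2 without the largest clonotype, 36.4 in cluster 4, 18.9 by UMIs and phase, 9.44 without the 3 largest clonotypes, 18.0 with each clonotype once, and it turned to -0.723 by clonotype size. The second TRB difference in the Ig control was -1.90 without bins (-3.77 to 0.647), -7.04 in cluster 4 (-7.61 to 1.19) and -6.19 by UMIs and phase. The cause of these changes was not tested. No paired analysis was possible because each group has 1 library, and leaving out a replicate was not possible for the same reason. With 53 paired anti-CD137 cells, TCR differences are the least certain values. Whether their intervals include 0 depended on the setting. The anti-CD137 expanded share interval lay above 0 with log bins (16.6, 0.108 to 32.6) and without bins (21.9, 7.60 to 35.8). The sharing interval lay above 0 with log bins (16.7, 3.23 to 33.0), by UMIs and phase (17.4), with at least 2 Tex cells required (11.7, 0.758 to 25.6), without the 3 largest clonotypes (11.8, 0.209 to 26.4) and with each clonotype once (15.9, 4.79 to 30.6). Log bins could match 41 cells and UMIs with phase 36 cells, against 51 in the main setting. Counting each clonotype once does not match clonotype size.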

Other observations

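Sharing with Teff cells was also counted. With anti-CD137, 2 of 51 Tex-cluster cells (3.92%, 0.478 to 13.5%) had a clonotype found in Teff, against 4.15% of UMI-matched cluster 1 cells. The Ig control had 92 of 379 (24.3%, 20.04 to 28.9%), against 7.23%, and 82 of the 92 were clonotype 1, which had 2 Teff cells. A second TRA chain was found in 13.7% of 51 paired Tex-cluster cells with anti-CD137, against 17.1% of UMI-matched cluster 1 cells, and in 10.6% of 379 in the Ig control, against 18.4%.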
